A study of Homo sapiens with 6 samples.

Results

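The genes of the TNF ligand superfamily (TNFSF) and of the TNF receptor superfamily (TNFRSF) were followed in H2452 cells, an established pleural mesothelioma line, after disruption of *NF2*. Members were chosen by their annotation, as protein-coding genes of the deposited count table whose symbol begins with TNFSF or TNFRSF and a number, which gave 33 of the 58735 genes listed. Of these, 12 were ligands and 21 were receptors. The superfamilies were singled out because earlier results of this same contrast were known, so the differences of their members between the groups are given as a description and without p-values. The rule itself used no measured value and has no threshold.

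The series held 3 libraries from cells with a scrambled control guide RNA (sgCtrl) and 3 from cells with 1 guide against *NF2* (sg*NF2*-1), which encodes merlin, a tumor suppressor upstream of the Hippo pathway. Both groups were sorted pools of H2452 cells that carried the same lentiviral vector, in which the U6 promoter drives the guide and the SFFV promoter drives Cas9 with an mCherry marker, so by their labels the groups differ in the guide. Neither a clone of these cells nor an agent was named for these libraries, and the labels do not say whether the 3 libraries of a group came from separate cultures. P-values therefore set the difference between the groups against the spread between these libraries, which may be technical. The paper states for its data at large that n counts biological replicates, but describes no separate cultures for this sequencing. The total count ranged from 14782423 to 17416463 per library, at which a count of 0 allows a level of up to 0.17 to 0.211 CPM (3 counts, counting error only), where CPM is a count relative to the library total after TMM scaling. *NF2* itself had 73.7, 72.9 and 67.5 CPM in the sgCtrl libraries and 39.3, 52.0 and 41.4 in the sg*NF2*-1 libraries. The targeted transcript was thus lower in every library with the *NF2* guide but not absent. Its level does not measure the protein, and the paper assessed the knockout by western blot.

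Ligands of the TNF superfamily are mostly trimeric proteins of the cell surface, some of which are shed, and each binds 1 or a few receptors of the TNFRSF family. Receptors with a death domain can recruit adaptors such as FADD, and through FADD caspase-8. Most others bind TRAF proteins, and receptors of both kinds can switch on NF-kappaB and kinase cascades. Some receptors lack a signaling domain or are secreted, and act as decoys. Many of the pairs are best known from T cells and B cells, where the ligand costimulates or sustains the cell that carries the receptor, while *TNFRSF1A*, *TNFRSF12A* and *TNFRSF10B* are widely made outside the immune system.

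The line was checked against markers before the members were examined. Of 10 mesothelial and epithelial markers, 9 passed the expression filter. *KRT8* stood at 1581 to 2118 CPM, *MSLN* at 33.1 to 64.7 and *WT1* at 4.28 to 11.2. The mesothelial markers *CALB2* and *UPK3B* were low, at 2.66 to 4.61 and 0.909 to 2.85 CPM, and *KRT5* had 8 counts in all. Markers of this list moved between the groups as well: *KRT7* and *MSLN* were called higher in sg*NF2*-1 (log2 fold changes of 1.20 and 0.66), and *PDPN*, *WT1* and *KRT19* lower (-1.28, -1.04 and -0.94). Among the immune cell markers, *PTPRC* and *MS4A1* had 0 counts in all 6 libraries, 5 others had 2 to 16 counts in all, and *CD14* alone passed the filter, at 133.4 to 147.9 CPM in sgCtrl and 63.9 to 70.6 in sg*NF2*-1. The immune list summed to 133.9 to 148.4 CPM in sgCtrl and 64.1 to 70.7 in sg*NF2*-1, and nearly all of that was *CD14*. Of 4 endothelial markers, *TEK* had 0 counts, *VWF* 6 and *CDH5* 98, while *PECAM1* fell by 2.28 on the log2 scale from 6.31 CPM, and the list summed to 6.19 to 8.53 CPM in sgCtrl and 1.93 to 3.23 in sg*NF2*-1. The part of these shifts in the values that follow was not tested. In bulk RNA, fewer cells that make a transcript and less of it per cell cannot be told apart.

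The stretch of 250 bases before the RefSeq transcription start (assembly GRCh38.p14) was available for 21 of the 33 members. It is shown for *TNFSF18*, the member with the largest increase, for *TNFSF4*, its neighbor in the genome, for *TNFSF10*, the more abundant of the 2 ligands called lower, and for *TNFRSF9*, a lower receptor whose window holds matches to 2 of the motifs searched. All 4 are written 5′ to 3′ on the minus strand, at chr1:173050942-173051191, chr1:173205533-173205782, chr3:172523431-172523680 and chr1:7940840-7941089 in this order, with motif matches in capitals.
TNFSF18: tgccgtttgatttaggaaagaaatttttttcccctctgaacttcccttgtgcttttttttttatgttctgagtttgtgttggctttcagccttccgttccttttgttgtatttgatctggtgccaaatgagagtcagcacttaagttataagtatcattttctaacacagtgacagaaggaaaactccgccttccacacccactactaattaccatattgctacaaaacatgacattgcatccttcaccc
TNFSF4: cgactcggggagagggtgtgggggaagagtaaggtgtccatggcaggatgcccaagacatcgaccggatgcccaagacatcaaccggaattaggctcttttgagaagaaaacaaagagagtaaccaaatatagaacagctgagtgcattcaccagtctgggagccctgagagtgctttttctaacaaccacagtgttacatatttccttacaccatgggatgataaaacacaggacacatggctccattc
TNFSF10: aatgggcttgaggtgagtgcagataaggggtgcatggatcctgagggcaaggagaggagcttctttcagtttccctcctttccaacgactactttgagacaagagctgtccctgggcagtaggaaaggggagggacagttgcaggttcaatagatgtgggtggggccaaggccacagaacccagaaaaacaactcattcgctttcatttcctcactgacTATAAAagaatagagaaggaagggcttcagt
TNFRSF9: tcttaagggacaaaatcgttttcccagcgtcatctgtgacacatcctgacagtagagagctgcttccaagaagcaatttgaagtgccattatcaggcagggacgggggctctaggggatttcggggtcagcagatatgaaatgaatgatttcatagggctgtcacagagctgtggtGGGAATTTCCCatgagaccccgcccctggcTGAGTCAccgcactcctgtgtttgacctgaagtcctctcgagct
The motifs searched on both strands were GGAATG for TEAD, TGANTCA for AP-1, TATAAA for the TATA box, and the NF-kappaB motif. The capitals in *TNFSF10* are a TATA box match whose first base lies 31 bases before the start. In *TNFRSF9* they are an AP-1 match that begins 44 bases before the start and 2 overlapping NF-kappaB matches that begin 74 and 73 bases before it, on a stretch that reads nearly alike on both strands. The windows of *TNFSF18* and *TNFSF4* held none of the 4, which says only that these letters are absent from these bases. The *TNFSF18* window was also poor in G and C, at 38.8%, against a median of 60.0% over the 21 members and 58.0% over all 27305 promoters of the table. Across the members, TEAD was matched in 2 windows (*TNFRSF14*, *TNFSF15*), where 11.9% of all promoters hold it. AP-1 was matched in 3 (*TNFRSF9*, *TNFSF14*, *TNFSF15*), against 6.6% of all, and NF-kappaB in 3 (*TNFRSF9*, *TNFRSF14*, *TNFSF14*), against 5.05%. The TATA box was matched in 3 (*TNFRSF18*, *TNFSF9*, *TNFSF10*), against 11.1%. For all 4 the gene model of the count table begins farther upstream, so each window belongs to a start inside the counted gene. The models begin at 173050963 for *TNFSF18*, 173207313 for *TNFSF4*, 172523507 for *TNFSF10* and 7943165 for *TNFRSF9*. The windows of *TNFSF4* and *TNFRSF9* lie wholly inside the model. Those of *TNFSF18* and *TNFSF10* lie partly inside it, and the TATA box match of *TNFSF10* is in the part inside.

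By transcript level, H2452 cells made mainly receptors that are common outside the immune system. On the scale of the deposited FPKM values, which take length into account, *TNFRSF12A* was highest, with 129.0, 140.8 and 148.5 in sgCtrl and 171.5, 168.5 and 220.7 in sg*NF2*-1. It encodes Fn14, the receptor of TWEAK. *TNFRSF1A*, the main receptor of TNF, followed at 81.7 to 86.0 in sgCtrl and 66.9 to 73.3 in sg*NF2*-1, and *TNFRSF10B*, the death receptor DR5, at 16.0 ± 1.34 (SD, n = 3) and 19.1 ± 0.83. These 3 did not overlap each other in any library. Below them *TNFSF9* (6.60 to 9.32 FPKM over all libraries), *TNFRSF8* (6.09 to 8.36) and *TNFSF15* (5.91 to 8.55) overlapped and have no order beyond their spread. Of the 5 members with the highest mean FPKM, *TNFRSF12A*, *TNFRSF1A*, *TNFRSF10B*, *TNFSF9* and *TNFRSF8*, all 5 were also the highest by TMM-scaled counts per kilobase. At the other end 3 receptors had 0 counts in all libraries: *TNFRSF18*, *TNFRSF13B* and *TNFRSF6B*. The last of these shares 100% of its exonic bases with the readthrough gene *RTEL1-TNFRSF6B*, so its 0 does not show an absent transcript.

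**Figure D1:**
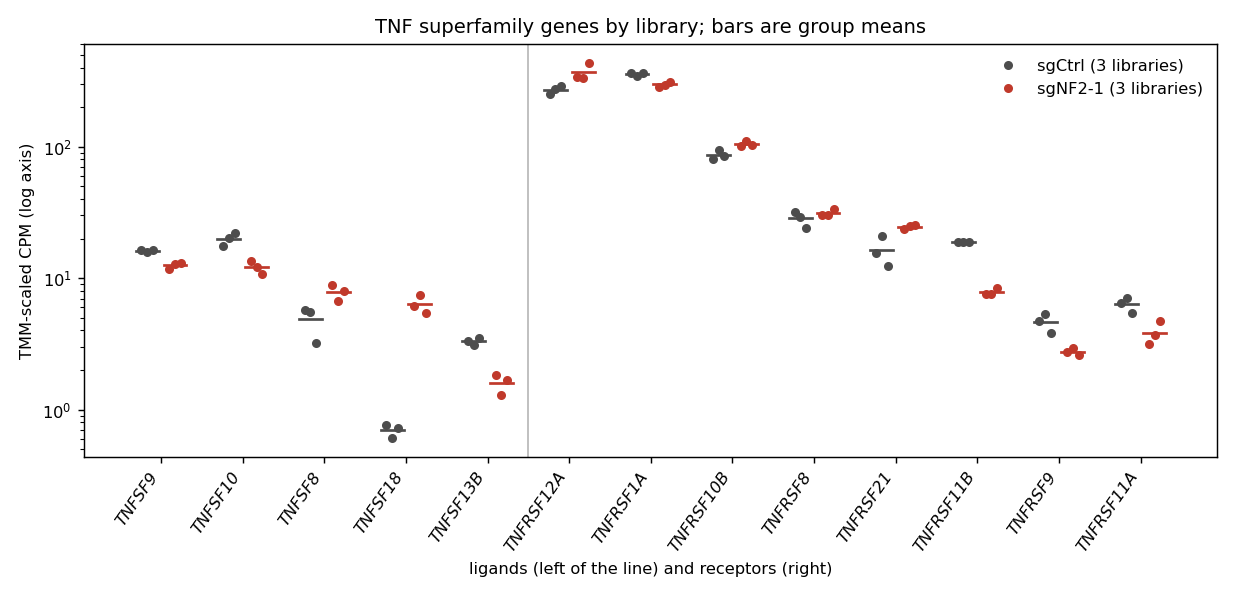
TMM-scaled CPM on a log axis for the called members and the 5 members of highest FPKM, with 1 point per library, a bar at each group mean, sgCtrl in gray and sg*NF2*-1 in red, ligands left of the line and receptors right of it. *TNFSF18* rises from 0.698 to 6.33 CPM, and *TNFRSF12A* and *TNFRSF1A* stand above 250 CPM in all libraries.

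Of the 33 members, 22 passed the expression filter and were tested, 9 ligands and 13 receptors. A gene was called when edgeR's quasi-likelihood fit gave it an adjusted p under 0.05 and a log2 fold change outside -0.5 to 0.5. By this rule 17.7% of the 14179 tested genes were called, 8.42% higher and 9.32% lower in sg*NF2*-1, and 34.3% passed the adjusted p with no fold limit. Among the ligands 2 were called higher (*TNFSF18*, *TNFSF8*) and 2 lower (*TNFSF13B*, *TNFSF10*). Among the receptors 1 was called higher (*TNFRSF21*) and 3 lower (*TNFRSF11B*, *TNFRSF9*, *TNFRSF11A*), so 8 of the 22 tested members were called. The median log2 fold change was -0.20 over the tested ligands and -0.18 over the tested receptors, beside 0.0 over all tested genes. The groups did not overlap in CPM for 6 of the 9 ligands and 9 of the 13 receptors, where 45.3% of all tested genes did not. Since the superfamilies were picked with this contrast known, nothing is read from these shares.

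**Figure D2:**
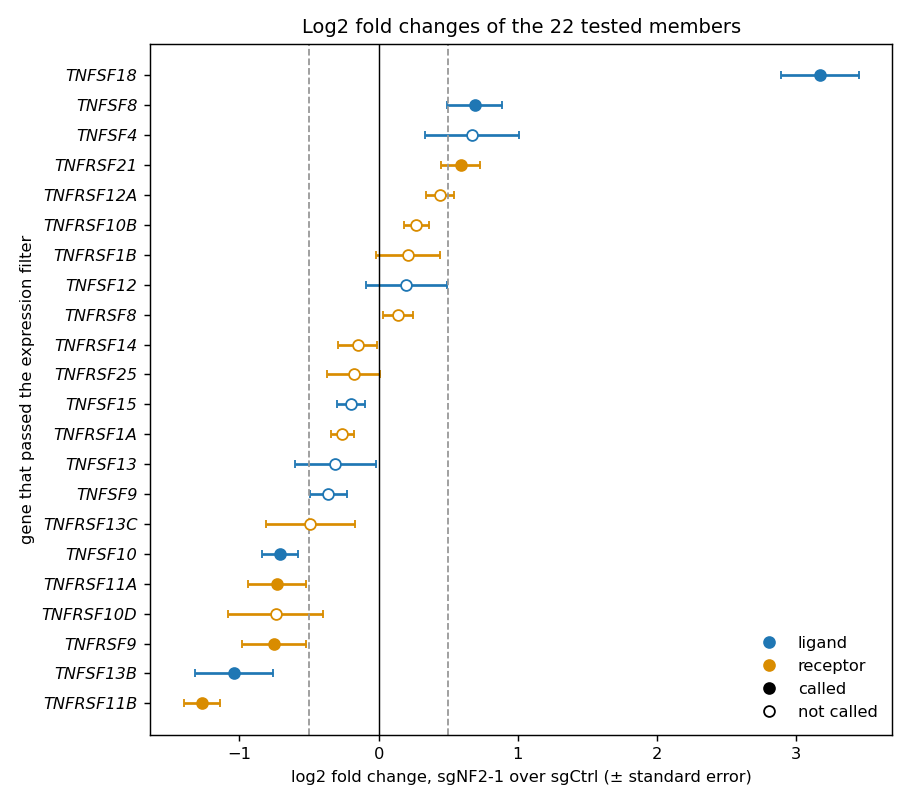
Log2 fold change of sg*NF2*-1 over sgCtrl with its standard error for the 22 tested members, ligands in blue and receptors in orange, filled where called and open where not, with dashed lines at the fold limit of 0.5. *TNFSF18* lies far right at 3.17, and the other members lie between -1.27 and 0.69.

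*TNFSF18* (ENSG00000120337, chromosome 1, 173039960 to 173050963, minus strand) encodes GITRL, the ligand of the T cell costimulator GITR. In sgCtrl its counts were 12, 10 and 11, and in sg*NF2*-1 they were 109, 114 and 77. Each library with the *NF2* guide was far above each control, and the controls stood near the lower end of what the filter admits. Scaled to CPM, sgCtrl stood at 0.698 ± 0.0794 (SD, n = 3) and sg*NF2*-1 at 6.33 ± 0.996, a log2 fold change of 3.17 (standard error 0.28) or 8.99-fold. This was the 8th largest increase among the 14179 tested genes. The filter asked for 0.645 CPM in at least 3 libraries, which 2 sgCtrl and 3 sg*NF2*-1 libraries reached, so the gene was tested only because of its level with the *NF2* guide. Per length it went from 0.33 to 2.96 FPKM, and its sg*NF2*-1 libraries (2.52 to 3.46) overlapped those of *TNFSF10* (2.88 to 3.67) and *TNFSF8* (2.16 to 2.88). Its fold change stayed between 3.05 and 3.27 in all 13 alternative fits, those without 1 library included.

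The genes around *TNFSF18* did not move to the same extent. *TNFSF4*, which encodes OX40L, another costimulatory ligand for T cells, is the next member on chromosome 1, 133 kb away. It had 18, 21 and 15 counts in sgCtrl and 31, 30 and 25 in sg*NF2*-1, higher in each library, with a log2 fold change of 0.67 (standard error 0.34) that did not pass the adjusted p. Of the other nearest tested genes, *METTL13*, *PIGC* and *PRDX6* had log2 fold changes of 0.25, 0.29 and 0.09, and *SUCO* and *AL645568.1* of -0.34 and -0.06.

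*TNFSF8*, the ligand of CD30, had 5.77, 5.54 and 3.23 CPM in sgCtrl and 8.92, 6.67 and 7.93 in sg*NF2*-1. The groups did not overlap, but sgCtrl replicate 3 lay well below the other controls. The log2 fold change was 0.69 (standard error 0.20), and the call was lost without sgCtrl replicate 3 (0.48) and without sg*NF2*-1 replicate 1 (0.59). *TNFSF15*, which lies 87.2 kb from it on chromosome 9 and encodes TL1A, overlapped between the groups at 59.1 to 71.1 CPM in sgCtrl and 49.7 to 61.4 in sg*NF2*-1.

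Among the lower ligands, *TNFSF10* encodes TRAIL, which triggers cell death through DR4 and DR5. Its level was 17.6, 20.2 and 21.9 CPM in sgCtrl and 13.6, 12.1 and 10.7 in sg*NF2*-1, below every control in each library. The log2 fold change was -0.71 (standard error 0.13) and ranged from -0.80 to -0.63 over the alternatives. *TNFSF13B*, which encodes the B cell survival factor BAFF, had 52, 51 and 53 counts in sgCtrl and 32, 20 and 24 in sg*NF2*-1. Its 3 controls were nearly alike and each *NF2*-guide library was lower, with a log2 fold change of -1.04 (standard error 0.28). It was called in all 13 alternative fits, at -1.14 to -0.90.

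The remaining ligands were not called or not tested. *TNFSF9*, the ligand of CD137, had 16.1 ± 0.387 CPM (SD, n = 3) in sgCtrl and 12.5 ± 0.715 CPM in sg*NF2*-1, with no overlap and a log2 fold change of -0.36 (standard error 0.13). *TNFSF12*, which encodes TWEAK, and *TNFSF13*, which encodes the B and plasma cell factor APRIL, overlapped between the groups, with log2 fold changes of 0.20 and -0.31 and a standard error of 0.29 each. They share 29.4% and 55.5% of their exonic bases with the readthrough gene *TNFSF12-TNFSF13*, which was given 2 counts in all, so their counts depend on how shared reads were assigned. *TNFSF14*, which encodes LIGHT, did not pass the filter. It had 20, 24 and 8 counts in sgCtrl and 4, 7 and 0 in sg*NF2*-1, lower in each library. In a fit without a filter its log2 fold change was -2.18 (standard error 0.61), past both limits. *TNFSF11*, which encodes RANKL, had 2 counts in all, both in sg*NF2*-1 replicate 1.

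Among the receptors, *TNFRSF11B* (ENSG00000164761, chromosome 8, 118923557 to 118952200, minus strand) fell furthest. It encodes osteoprotegerin, a secreted decoy that binds RANKL and TRAIL. It had 18.8, 18.9 and 19.0 CPM in the sgCtrl libraries and 7.56, 7.52 and 8.43 in the sg*NF2*-1 libraries. The 3 libraries of each group lay close together and the groups were far apart, with a log2 fold change of -1.27 (standard error 0.13) that ranged from -1.32 to -1.24 over the alternatives. Of the nearest tested genes on one side, *EXT1*, *MED30* and *RAD21* had log2 fold changes of 0.09, 0.04 and -0.06. On the other side *MAL2* had 0.53 and was not called, while *NOV* and *ENPP2* were lower, at -1.35 and -1.64 (edgeR adjusted p = 3.65e-05 and 0.00847).

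*TNFRSF11A*, which encodes RANK, the signaling receptor of RANKL, had 6.47, 7.07 and 5.47 CPM in sgCtrl and 3.13, 3.69 and 4.70 in sg*NF2*-1. It was lower in each library, with a log2 fold change of -0.73 (standard error 0.21), and the call was lost without sg*NF2*-1 replicate 1 (-0.59). *TNFRSF9*, which encodes CD137, a costimulator of T cells, had 4.70, 5.36 and 3.82 CPM in sgCtrl and 2.73, 2.92 and 2.60 in sg*NF2*-1. It was also lower in each library, at -0.75 (standard error 0.23), and the call was lost without sgCtrl replicate 2 (-0.63). *TNFRSF21*, which encodes the death domain receptor DR6, was the receptor called higher, with 15.5, 21.0 and 12.3 CPM in sgCtrl and 23.5, 24.9 and 25.3 in sg*NF2*-1. Its controls were spread widely while the *NF2*-guide libraries were close together. Its log2 fold change of 0.59 (standard error 0.14) was lost as a call without sgCtrl replicate 3, at 0.43.

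The 3 most abundant receptors shifted by less than the fold limit, each with no overlap between the groups. *TNFRSF12A* had 251.5, 274.1 and 289.9 CPM in sgCtrl and 337.8, 330.6 and 435.2 in sg*NF2*-1, so each *NF2*-guide library was higher and replicate 3 was the highest. Its log2 fold change was 0.44 (standard error 0.10), and it was called only without sg*NF2*-1 replicate 2, at 0.51. Without sg*NF2*-1 replicate 3 the log2 fold change of *TNFRSF12A* was 0.30. *TNFRSF1A* had 363.4, 344.7 and 361.1 CPM in sgCtrl and 285.5, 294.9 and 313.2 in sg*NF2*-1, with a log2 fold change of -0.26 (standard error 0.08). *TNFRSF10B* had 81.0, 94.9 and 84.7 CPM in sgCtrl and 101.8, 109.6 and 102.6 in sg*NF2*-1, with a log2 fold change of 0.27 (standard error 0.09). So the receptor of TWEAK and the TRAIL death receptor stood higher and the main TNF receptor lower, all by modest amounts. *TNFRSF8*, which encodes CD30, had 32.1, 29.1 and 24.1 CPM in sgCtrl and 30.1, 30.3 and 33.4 in sg*NF2*-1, and the groups overlapped.

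The other tested receptors were *TNFRSF14*, *TNFRSF25*, *TNFRSF1B*, *TNFRSF13C* and *TNFRSF10D*, with log2 fold changes of -0.15, -0.18, 0.21, -0.49 and -0.74, none of them called. The last 2, the BAFF receptor and a decoy receptor of TRAIL, were lower in each sg*NF2*-1 library but had under 3 CPM in every library. *TNFRSF14* and *TNFRSF25* share 13.4% of their exonic bases with an antisense gene and 8.94% with *ESPN* on the opposite strand, and whether counting used strand is not given in the sources used here. Of the 8 receptors that did not pass the filter, *TNFRSF19* had 9, 16 and 11 counts in sgCtrl and 6, 6 and 4 in sg*NF2*-1. *TNFRSF10A*, which encodes DR4, had 17 counts over all libraries, *TNFRSF4* 9, *TNFRSF17* 8 and *TNFRSF10C* 1, and 3 had 0.

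Setting each ligand beside its receptor asked which pairs were present in the same culture. Only pairs in which both genes have a TNFSF or TNFRSF symbol were used, so receptors under other symbols, such as *LTBR*, are left out. Of 21 such pairs from textbook knowledge, both genes passed the filter in 8, the ligand alone in 9, the receptor alone in 3 and neither in 1. The pairs of *TNFSF14* and of *TNFSF15* with *TNFRSF6B* count that receptor as not passing, although its 0 does not show an absent transcript. *TNFSF18* was among the ligands without a receptor: *TNFRSF18*, which encodes GITR, had 0 counts in each of the 6 libraries, which allows up to 0.17 to 0.211 CPM. *TNFSF4* was in the same position, with 1, 4 and 3 counts of *TNFRSF4* in sgCtrl and 0, 0 and 1 in sg*NF2*-1. The reverse held for the RANKL axis, where *TNFSF11* had 2 counts in all while the receptor *TNFRSF11A* and the decoy *TNFRSF11B* were both called lower. For TRAIL, the ligand *TNFSF10* was lower, the death receptor *TNFRSF10B* had 16.0 FPKM in sgCtrl and 19.1 in sg*NF2*-1, the death receptor *TNFRSF10A* had under 0.1 FPKM in each library, and the decoys *TNFRSF11B* and *TNFRSF10D* had log2 fold changes of -1.27 and -0.74. For TWEAK, *TNFSF12* stood at 1.13 and 1.29 FPKM and its receptor *TNFRSF12A* at 139.4 and 186.9. For CD137, the ligand *TNFSF9* had 9.16 and 7.07 FPKM and the receptor *TNFRSF9* 0.693 and 0.408.

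**Figure D3:**
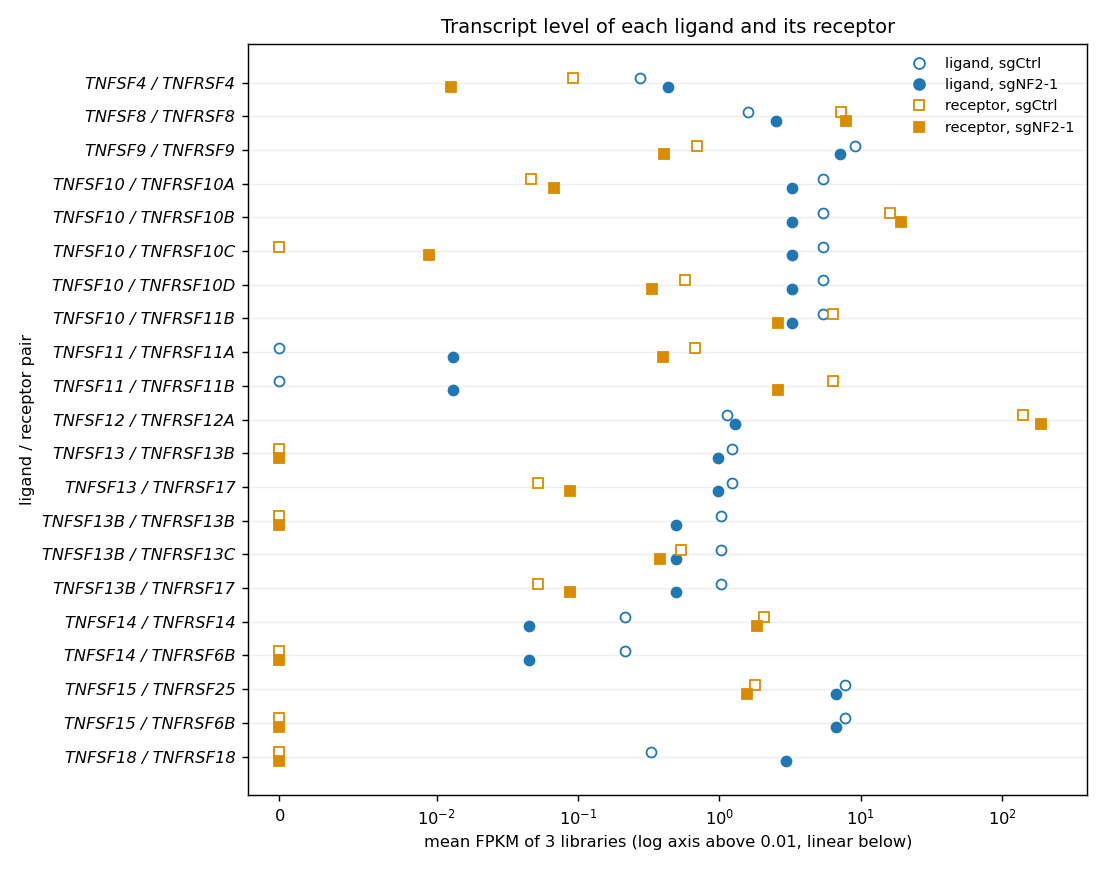
Mean FPKM of the 3 libraries of each group for the 21 ligand and receptor pairs, with circles for ligands and squares for receptors, open for sgCtrl and filled for sg*NF2*-1, on an axis that is logarithmic above 0.01 and linear below. In the lowest row *TNFSF18* moves from 0.33 to 2.96 while *TNFRSF18* stays at 0, and the receptor *TNFRSF12A* lies far to the right of its ligand.

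Members of the same superfamilies with other symbols were counted apart. Of 7 such ligands 2 were tested, and *TNF*, *CD40LG* and *FASLG* had 0 counts in all libraries. *EDA*, which encodes ectodysplasin A, had 21, 22 and 29 counts in sgCtrl and 6, 13 and 5 in sg*NF2*-1, a log2 fold change of -1.57 (standard error 0.45), and the call was lost without sg*NF2*-1 replicate 1 (-1.32). It passed the filter of 0.645 CPM in 3 libraries only through sgCtrl, where it is high, and was not tested when 10 counts in every library were asked for. *CD70* overlapped between the groups, at -0.29. Of 8 such receptors 5 were tested. *EDA2R*, a receptor of ectodysplasin, had 12, 13 and 15 counts in sgCtrl and 31, 28 and 42 in sg*NF2*-1, a log2 fold change of 1.34 (standard error 0.37), and the call was lost without sg*NF2*-1 replicate 3 (1.08). *LTBR*, the lymphotoxin-beta receptor and the most abundant of these receptors, had 161.1 to 174.1 CPM in sgCtrl and 159.4 to 191.8 in sg*NF2*-1, and *CD40* had 1 count in all.

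Downstream of the receptors, 27 of 29 adaptors, kinases, ligases and death effectors were tested and 1 was called, or 3.7%, beside 17.7% of all tested genes. This was *RBCK1*, which encodes HOIL-1 of the linear ubiquitin ligase complex. It had 257.9, 244.3 and 238.7 CPM in sgCtrl and 481.9, 502.9 and 556.1 in sg*NF2*-1, a log2 fold change of 1.06 (standard error 0.08), and it was also the most abundant gene of the list. *RNF31* and *SHARPIN*, its partners in the complex, had log2 fold changes of 0.42 and 0.21 and were not called. With no fold limit, 6 of the 27 passed the adjusted p, 5 higher and 1 lower, beside 34.3% of all tested genes. The higher ones were *RBCK1*, *RNF31*, *TRAF4* (0.30), *TRAF2* (0.26) and *TAB1* (0.26). The lower one was *CFLAR*, which encodes the caspase-8 inhibitor FLIP, at -0.43 and so inside the fold limit. The necroptosis kinase gene *RIPK3* and the ectodysplasin receptor adaptor gene *EDARADD* had 0 counts in all libraries. The median log2 fold change of the 27 was 0.04.

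All 16 NF-kappaB subunits, inhibitors and deubiquitinases were tested, and 4 were higher and 3 lower, with a median of 0.10. These are 25.0% and 18.8% of the list, beside 8.42% and 9.32% of all tested genes. *RELB*, a subunit of the noncanonical branch, had 47.5, 38.9 and 34.7 CPM in sgCtrl and 72.7, 75.8 and 87.4 in sg*NF2*-1, a log2 fold change of 0.96 (standard error 0.11). Its partner *NFKB2* had 91.8 ± 8.13 and 141.5 ± 11.8 CPM (SD, n = 3), at 0.62. *RELA* and *TNIP2* were higher by 0.52 each, close to the fold limit, and lost the call without sg*NF2*-1 replicate 3 (0.49 and 0.43) and with library totals in place of TMM (0.49 and 0.48), *TNIP2* also without sgCtrl replicate 2 (0.49) or 3 (0.47). Lower were *NFKBID* (-0.92), *BCL3* (-0.58) and *NFKBIA* (-0.50), which encode nuclear and cytoplasmic IkappaB proteins. The *NFKBIA* value sat on the fold limit and lost the call in 4 of the 6 fits that left out 1 library. *NFKBIZ*, which encodes another nuclear IkappaB protein, was just inside the limit at -0.49 and was called lower in 3 of these fits and with library totals (-0.51). *TNIP1*, which had the highest CPM of the list, was not called, at 0.11.

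Of 12 genes commonly induced through TNF and NF-kappaB, 11 were tested, and they moved in both directions. *IL6* had 7.17, 8.10 and 9.29 CPM in sgCtrl and 21.0, 19.0 and 17.6 in sg*NF2*-1, a log2 fold change of 1.23 (standard error 0.14), and *IRF1* was higher by 0.63. *CCL2*, a monocyte chemoattractant, had 36.9, 48.6 and 51.3 CPM in sgCtrl and 12.7, 12.4 and 15.1 in sg*NF2*-1, a log2 fold change of -1.77 (standard error 0.13). The adhesion molecule gene *VCAM1* had 18, 19 and 18 counts in sgCtrl and 5, 7 and 3 in sg*NF2*-1, at -1.85 (standard error 0.48). It too passed the filter only through sgCtrl and was not tested when 10 counts in every library were asked for. *SOD2*, which had the highest CPM of the list, was at -0.26. The median of the list was -0.18. Over the 5 lists 14 of 61 tested genes were called, 8 higher and 6 lower, or 23.0%, and the higher count was 5 without sg*NF2*-1 replicate 3. The lists were composed with earlier results of this contrast known, so this share is given beside the 17.7% of all tested genes and not tested against it.

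**Figure D4:**
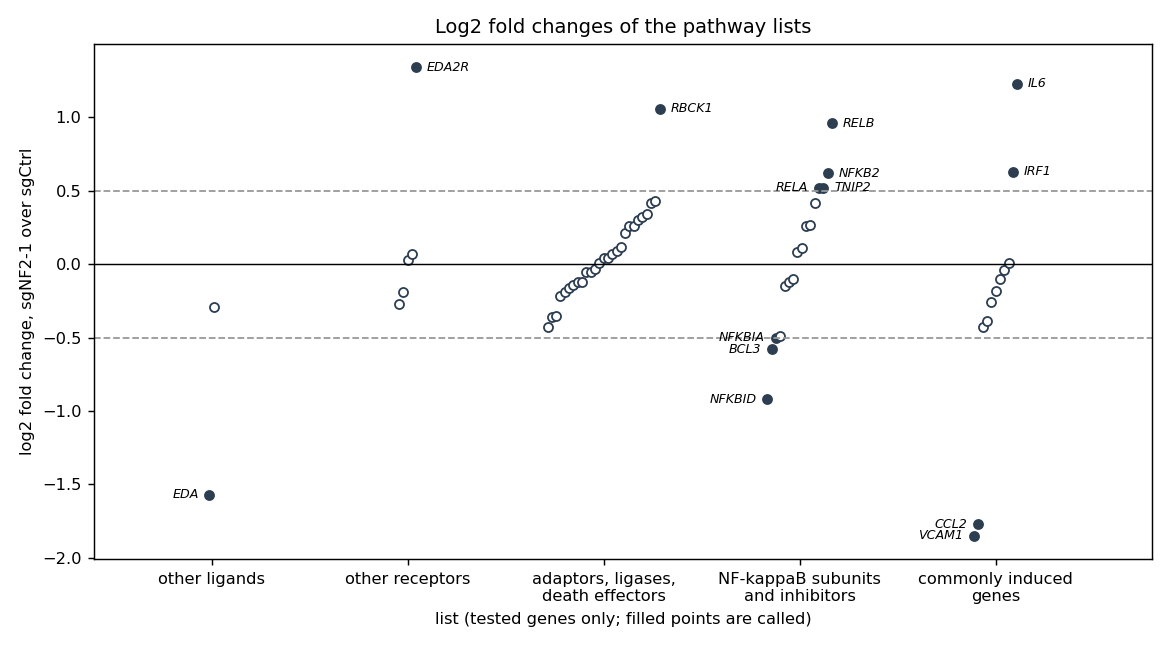
Log2 fold change of sg*NF2*-1 over sgCtrl for each of the 61 tested genes of the 5 pathway lists, with 1 point per gene, filled and named where called, and dashed lines at the fold limit of 0.5. The adaptors lie near 0 except *RBCK1* at 1.06, while called genes of the NF-kappaB list and of the commonly induced genes lie on both sides of 0.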

How the data were processed

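RNA was sequenced from 3 sgCtrl and 3 sg*NF2*-1 libraries of H2452 cells, grouped by the sample titles. For each gene the authors deposited its raw read count and an FPKM value derived from it. The submitters' processing notes name HISAT2, StringTie 1.3.3b and featureCounts 1.5.0-p3 with the build hg38, and the strand setting of the counting is not given in the sources used here. All 33 members have the same start and end in GENCODE release 29.

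Counts were filtered with filterByExpr (minimum count 10, minimum total 15), normalized by TMM and fitted with edgeR 4.0.16 in R 4.3.3, with group as the only term and Benjamini-Hochberg adjustment over 14179 genes. Calls needed an adjusted p under 0.05 together with a log2 fold change outside -0.5 to 0.5. Standard errors were the log2 fold change divided by the square root of its F statistic. FPKM values were used as deposited to compare levels between genes and were not tested. Total counts ranged from 14782423 to 17416463, and a chi-square per degree of freedom of 5.17 to 12.6 within groups shows that libraries of a group differed by more than sampling noise. The procedure was tested on simulated counts.

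Values per library are given for *NF2*, for called members and for the 5 members of highest FPKM. From each pathway list up to 4 called genes per direction and the gene of highest CPM are named, and some further members and list genes were named after their values were seen. The members and lists were chosen with earlier results of these data known. Alternatives were DESeq2 1.42.0, its size factors or library totals in edgeR, other filters, a replicate block, leaving out each library, unadjusted p-values, no fold limit and protein-coding genes only. Promoter sequences are from RefSeq. Protein sequences were not used here. A marker gene that was looked at is not reported here.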

Additional observations from a re-analysis of the deposited data

How the results depend on the processing

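Over DESeq2, other scalings and filters, protein-coding genes only and the fits without 1 library, none of the 13 members followed changed direction. Of the 290 values recomputed under an alternative, 274 kept their direction and their call, or stayed within 1.5 times for a count. Among members under the fold limit, *TNFSF9* passed the adjusted p in 7 of 13 fits and *TNFRSF1A* and *TNFRSF10B* in 11 each. With an adjusted p and no fold limit, 2515 genes were higher and 2351 lower, with 3 receptors higher, and 14 list genes higher and 10 lower. Leaving out each library in turn gave 1 to 2 ligands higher, 0 to 2 receptors higher and 5 to 9 list genes higher. Lower were 2 to 3 ligands, 2 to 3 receptors and 5 to 7 list genes. *TNFSF14* passed the filter and was called lower without sgCtrl replicate 3 (-2.52), sg*NF2*-1 replicate 1 (-2.18) or sg*NF2*-1 replicate 2 (-3.05). The sources used here do not say whether the replicate numbers pair samples. Same-numbered libraries of the groups deviated together with correlations of -0.0319, 0.0566 and 0.0498. With a replicate block 1186 genes were called higher and 1316 lower, and no call of a member or list gene changed. Depth limits members under about 1 CPM, where 3 counts correspond to 0.17 to 0.211 CPM.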
